A study of Mus musculus with 6 samples.

Results

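A set of 42 genes that copy DNA or carry cells from G1 into S phase was followed in mouse M2 macrophages (Mφs) after blockade of 5′tRF-Glu(CTC), a fragment from the 5′ side of a glutamate tRNA. The genes were chosen for their known roles, with earlier results of these data known, and were matched by symbol to the 41549 genes of the deposited table. All 42 had enough reads to be among the 11933 genes tested. Most were less abundant when the fragment was blocked: 37 of 42 had a negative fitted log2 fold change, against 48.04% of all genes tested, and for 25 of 42 all 3 libraries with the blocked fragment lay below all 3 control libraries, against 15.9% of all genes tested. The median log2 fold change was -0.60, against 0.016 over all genes tested.

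Bone marrow of wild-type C57Bl/6 N mice aged 10 to 12 weeks was grown into Mφs with macrophage colony-stimulating factor for 7 days, and both groups were then polarized for 48 h with IL-4 and IL-13. Before polarization the cells received either a control locked nucleic acid inhibitor (Ctr, 3 libraries) or one directed against 5′tRF-Glu(CTC) (αGlu, 3 libraries), at 50 pmol per well. Transfection of such an inhibitor is transient and was the one difference between the groups that the labels and methods give. According to the methods, different replicates of primary cells come from different animals, but the labels do not tie a library to an animal.

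The inhibitor and the fragment sequence it was designed against are shown because they define the treatment. Both run 5′ to 3′, and capitals in the target mark bases 2 to 21, which pair with the inhibitor without a mismatch.
αGlu inhibitor: taaccactagaccaccaggg
Target in the fragment: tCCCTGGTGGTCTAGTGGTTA

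DNA is copied once per division. In G1, the origin recognition complex, CDC6 and CDT1 load rings of 6 MCM proteins onto origins, and geminin later keeps CDT1 from loading more. At the start of S phase CDC45 and the GINS complex join MCM to form the active helicase, polymerase α with primase starts each strand, and polymerases δ and ε extend it on the PCNA clamp. Cyclin E with CDK2 drives the entry into S phase, and E2F factors switch on most of these genes late in G1. Mφs derived from bone marrow with macrophage colony-stimulating factor still divide, and a mature Mφ can leave the cycle.

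The libraries had 17912831 to 30386653 reads on genes. The labelled cell type was checked with 8 Mφ markers, and all 8 were above 1 CPM (counts scaled by library depth) in both groups. Across the genes tested, log2 CPM of the Ctr libraries correlated with one another at a Pearson r of 0.978 to 0.988, and αGlu 2 with αGlu 3 at 0.992. αGlu 1 stood apart from its group, with an r of 0.929 to both αGlu 2 and αGlu 3 and of 0.966 to 0.982 to the Ctr libraries. Such values are taken over genes, which do not count as replicates. Every pair of libraries differed by more than sampling noise (19.8 or more for chi-square divided by the number of genes). Results are therefore given with and without αGlu 1 where it decides them.

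CPM values are deposited counts scaled to the library size after trimmed mean of M-values (TMM) normalization. Transcripts of the 42 genes together made up 0.111%, 0.0915% and 0.0984% of the reads in Ctr 1, 2 and 3, and 0.0724%, 0.0546% and 0.0562% in αGlu 1, 2 and 3. The mean log2 CPM over the genes was 3.49, 3.15 and 3.33 in Ctr and 2.55, 2.56 and 2.60 in αGlu. The αGlu libraries were thus all below the Ctr libraries, by 0.75 on average. In this mean they were closer to each other (SD 0.023, n = 3) than the Ctr libraries were (SD 0.17, n = 3). Gene by gene they were less alike, as αGlu 1 was the lowest αGlu library in 17 of the 42 genes and the highest in 19. Fewer cells in S phase and less of these RNAs in each cell cannot be told apart in bulk samples.

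**Figure D1:**
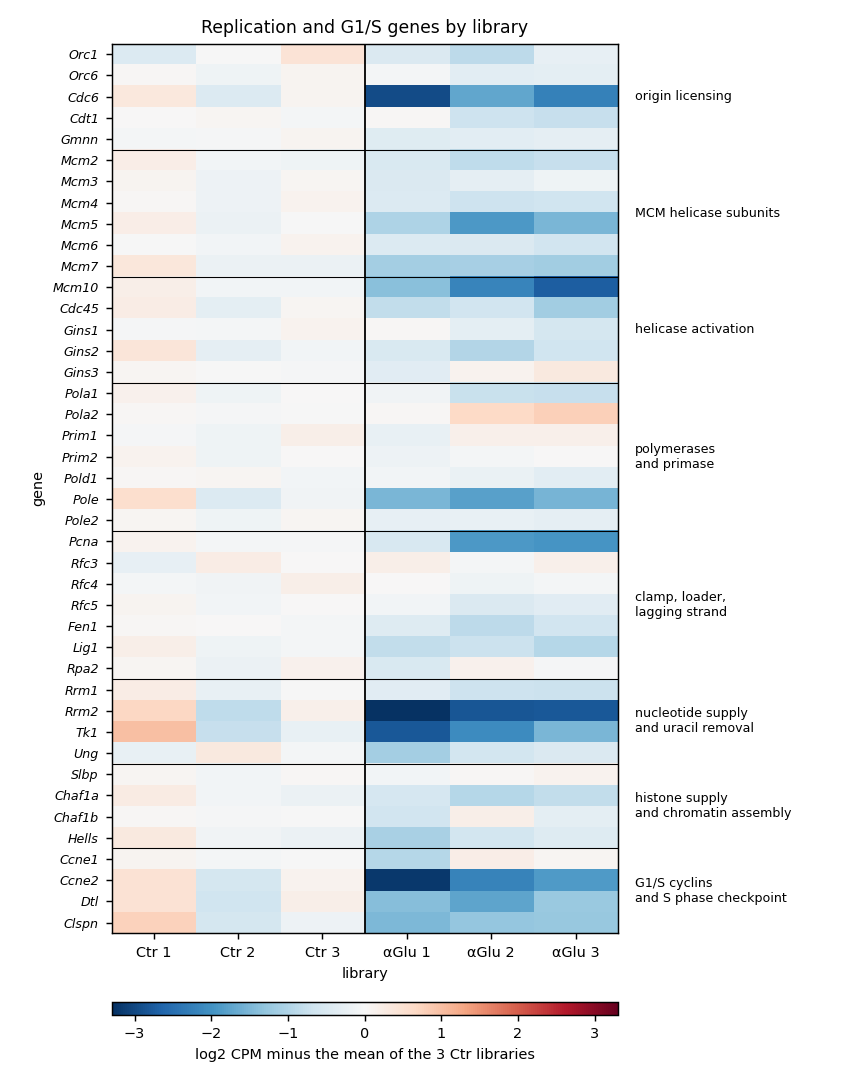
Level of each of the 42 genes (rows, grouped by role) in each of the 6 libraries (columns), as log2 CPM minus the mean of the 3 Ctr libraries. Blue is below and red above the Ctr mean; the strongest blue is seen for Rrm2, Ccne2, Cdc6, Tk1 and Mcm10, while Slbp, Prim2 and Rfc4 stay near white and Pola2 turns red in αGlu 2 and αGlu 3.

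The main test was edgeR's quasi-likelihood F test, with Benjamini-Hochberg adjustment over the genes tested, in which a call needed an adjusted p under 0.1 and a log2 fold change below -1. By that rule 0 of 42 genes were lower in αGlu, as were 0% of all genes tested, and the adjusted p of the 42 genes ran from 0.149 to 0.905. At an unadjusted p under 0.05, 26 of 42 genes (61.9%) were lower, against 11.9% of all genes tested. Limited to the order of the libraries, 25 of 42 (59.5%) were lower without overlap, against 15.9% of all genes, and 1 of 42 (2.38%), Pola2, was higher without overlap, against 14.2% of all genes. In the remaining 16 genes the groups overlapped.

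Of the fits run, 2 called any of the 42 genes, and with the fold limit both took the same 11. DESeq2 on all 6 libraries called 11 (26.2%) lower at an adjusted p under 0.1 and a log2 fold change below -1, against 3.92% of all genes it tested. Without the fold limit it called 22 (52.4%) lower, against 8.1% of all genes. The quasi-likelihood test without αGlu 1 also called 11 (26.2%) lower, against 10.5% of all genes. All 11 were called in both, and all 11 were lower without overlap in the 6 libraries: Rrm2, Ccne2, Cdc6, Tk1, Mcm10, Pole, Dtl, Clspn, Mcm5, Pcna and Mcm7. Both fits use the same libraries, so neither is independent of the other.

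**Figure D2:**
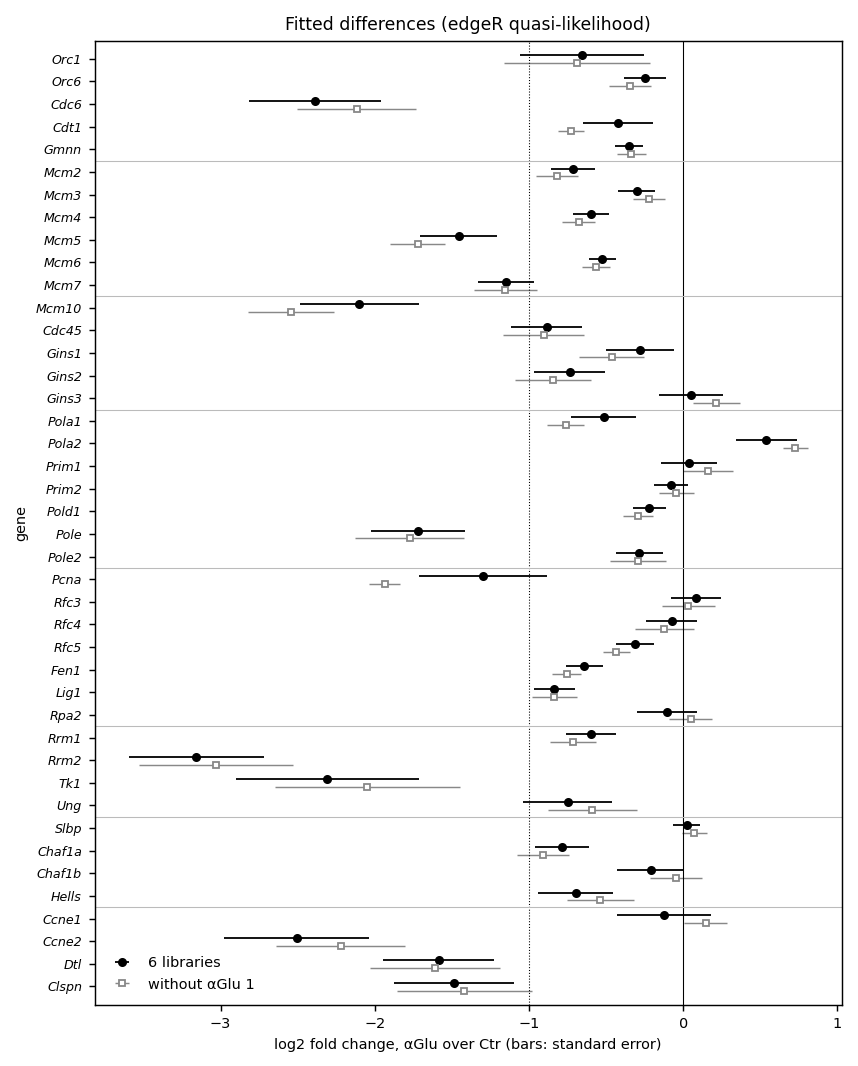
Fitted log2 fold change (αGlu over Ctr) with its standard error for the 42 genes, in the order of their roles, from all 6 libraries (black circles) and without αGlu 1 (open squares). The dotted line marks -1; 11 genes lie beyond it in both fits, from Rrm2 at -3.16 to Mcm7 at -1.15.

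Differences were not of one size across the roles. Median log2 fold changes were -1.54 for the 4 G1/S cyclin and checkpoint genes and -1.53 for the 4 genes of nucleotide supply and uracil removal. They were -0.74 for the 5 helicase activation genes, -0.66 for the 6 MCM subunits, -0.45 for the 4 genes of histone supply and chromatin assembly, and -0.42 for the 5 licensing genes. The 7 genes of the clamp, its loader and the lagging strand had a median of -0.31, and the 7 polymerase and primase genes one of -0.22.

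Among the licensing genes, Cdc6, the ATPase that brings MCM to the origin, was lower. It had 3.04, 1.71 and 2.51 CPM in Ctr 1, 2 and 3, and 0.229, 0.661 and 0.440 CPM in αGlu 1, 2 and 3. The highest αGlu library was below the lowest Ctr library, and the mean of αGlu was 18.3% of that of Ctr. The log2 fold change was -2.39 ± 0.43 (SE, n = 3 per group), or -2.12 ± 0.39 without αGlu 1. These are low levels, between 4 and 67 reads per library, so that counting error adds to the spread.

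Gmnn, which encodes geminin, was the licensing gene with the highest level per transcript length. It had 15.7, 15.9 and 17.5 CPM in Ctr and 12.4, 12.7 and 13.3 CPM in αGlu, again with no overlap, and a log2 fold change of -0.35 ± 0.09. Cdt1, the loader that geminin restrains, differed among the αGlu libraries. It had 26.5, 27.4 and 25.1 CPM in Ctr, 27.2 CPM in αGlu 1, and 16.4 and 15.5 CPM in αGlu 2 and αGlu 3. Here αGlu 1 sat among the Ctr libraries, and the ratio of Cdt1 to Gmnn reads overlapped between the groups. The log2 fold change of Cdt1 was -0.42 ± 0.23, or -0.73 ± 0.08 without αGlu 1. Orc1 and Orc6, subunits of the origin recognition complex, had log2 fold changes of -0.66 ± 0.40 and -0.25 ± 0.14, and their groups overlapped. Orc1 was the gene with the fewest reads of the 42, 70 in all 6 libraries.

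All 6 subunits of the MCM ring, the motor of the helicase, had negative log2 fold changes. Lower without overlap were 5 of them, against 15.9% of all genes tested. The fold changes of the 6 subunits differed in size although the ring holds each subunit once. Mcm5 had 24.5, 18.2 and 20.7 CPM in Ctr and 10.4, 5.57 and 7.30 CPM in αGlu (log2 fold change -1.45 ± 0.25). Mcm7 had 25.2, 16.8 and 16.9 CPM in Ctr and 8.89, 9.07 and 8.66 CPM in αGlu (-1.15 ± 0.18). In Mcm7 the αGlu libraries were nearly level while Ctr 1 was above the other Ctr libraries. Without Ctr 1 the log2 fold change of Mcm7 was -0.92 ± 0.10, within the fold limit for a call. Mcm6, the most abundant subunit per length, had 58.1, 54.3 and 62.6 CPM in Ctr and 42.7, 41.5 and 37.5 CPM in αGlu (-0.52 ± 0.09).

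Mcm2 and Mcm4 were lower without overlap by -0.71 ± 0.14 and -0.60 ± 0.12 on the log2 scale. Mcm3 was the subunit with the smallest difference (-0.30 ± 0.12), and αGlu 3, with 31.7 CPM, was above the lowest Ctr library, with 31.2 CPM. In TPM, the deposited values scaled by length, which allow levels of different genes to be compared, the subunits spanned 4.31-fold in Ctr, from 8.76 for Mcm2 to 37.7 for Mcm6. They spanned 4.91-fold in αGlu, from 5.65 for Mcm2 to 27.8 for Mcm6. Reads of Mcm5 for each read of Mcm3 were 0.655, 0.584 and 0.569 in Ctr and 0.416, 0.196 and 0.230 in αGlu. Reads of Mcm7 for each read of Mcm6 were 0.434, 0.310 and 0.271 in Ctr and 0.208, 0.219 and 0.231 in αGlu. Neither ratio overlapped between the groups, and both were chosen after the values had been seen.

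Among the helicase activation genes, the largest difference was that of Mcm10, a scaffold needed for the helicase to start. It had 4.91, 4.01 and 4.04 CPM in Ctr and 1.61, 0.881 and 0.587 CPM in αGlu, with a log2 fold change of -2.10 ± 0.38. αGlu 1 was the highest αGlu library, and without it the difference was -2.54 ± 0.28. Cdc45 (-0.89 ± 0.23) and Gins2 (-0.74 ± 0.23) were also lower without overlap. The other GINS subunits among the 42 were not. Gins1, the most abundant of the helicase activation genes per length, had 3.09, 3.01 and 3.43 CPM in Ctr and 3.27, 2.52 and 2.09 CPM in αGlu (-0.28 ± 0.22). Gins3 had 5.13, 4.81 and 4.73 CPM in Ctr and 3.73, 5.32 and 6.09 CPM in αGlu, so that αGlu 1 was the lowest and αGlu 3 the highest of the 6 libraries (0.05 ± 0.21).

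Of the 7 polymerase and primase genes, 2 were lower and 1 was higher without overlap, against 15.9% and 14.2% of all genes tested. With 7 genes, counts this small say little about the role. Pole, the catalytic subunit of polymerase ε, which extends the leading strand, had 7.50, 3.72 and 4.69 CPM in Ctr and 1.72, 1.42 and 1.69 CPM in αGlu (-1.72 ± 0.31). Each αGlu library was under the lowest Ctr library by more than 2-fold. Pole2, its second subunit, was lower without overlap but by little (-0.29 ± 0.15). Pold1, the catalytic subunit of polymerase δ, had 17.1, 17.3 and 15.6 CPM in Ctr and 15.8, 14.2 and 13.1 CPM in αGlu (-0.22 ± 0.11), and αGlu 1 lay within the Ctr range.

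Polymerase α and primase, which lay down the first bases of each new strand, share a complex of 4 subunits, whose fold changes differed in sign. Pola1, the catalytic subunit, had a log2 fold change of -0.52 ± 0.21, with αGlu 1 among the Ctr libraries. Without αGlu 1 that of Pola1 was -0.76 ± 0.12. Pola2, the regulatory subunit, had 18.6, 17.7 and 18.003 CPM in Ctr, 18.6 CPM in αGlu 1, and 28.7 and 31.4 CPM in αGlu 2 and αGlu 3. αGlu 1 exceeded Ctr 1 only by 18.5821 to 18.5808 CPM, so the lack of overlap for this gene rested on αGlu 2 and αGlu 3. Its log2 fold change was 0.54 ± 0.20, or 0.73 ± 0.08 without αGlu 1 (adjusted p = 0.000899, edgeR quasi-likelihood with Benjamini-Hochberg adjustment, under the fold limit for a call). The primase subunits Prim1 and Prim2 had differences smaller than their errors. Prim1 had 4.91, 4.60 and 5.80 CPM in Ctr and 4.24, 5.67 and 5.76 CPM in αGlu (0.04 ± 0.18), and Prim2 differed by -0.08 ± 0.11.

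**Figure D3:**
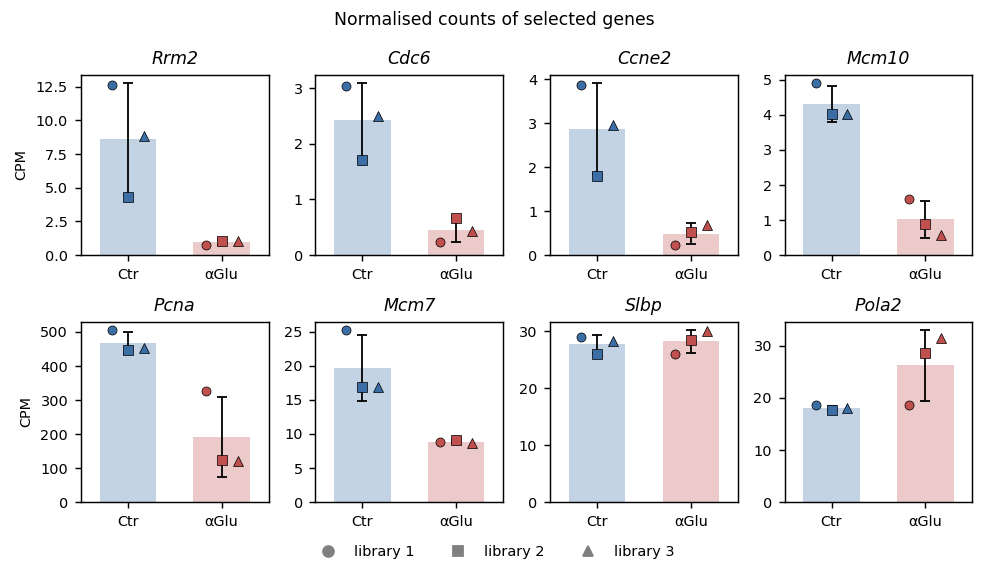
Normalised counts (CPM, linear axes from 0) of 8 of the genes in Ctr and αGlu. Bars are means, error bars SD (n = 3), and symbols the libraries 1 to 3 of each group. Rrm2, Cdc6, Ccne2, Mcm10, Pcna and Mcm7 do not overlap between the groups, Slbp does, and in Pcna and Pola2 the library αGlu 1 (circle) is the one nearest to Ctr.

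Pcna, the sliding clamp that holds polymerases on DNA, was by far the most abundant of the 42 transcripts. It had 505, 448 and 452 CPM in Ctr, 327 CPM in αGlu 1, and 125 and 120 CPM in αGlu 2 and αGlu 3. All αGlu libraries were below all Ctr libraries, but αGlu 1 was less far below than the other two. The log2 fold change was -1.30 ± 0.42, and without αGlu 1 it was -1.94 ± 0.10. Pcna alone accounts for much of the summed level of the 42 genes. The other 41 summed to 614, 515 and 560 CPM in Ctr and to 417, 397 and 405 CPM in αGlu, where αGlu 1 was close to αGlu 2 and αGlu 3. GENCODE M21 lists the processed pseudogenes Pcna-ps1 and Pcna-ps2, which were not analysed here, and how reads that fit several genes were assigned was not stated in the sources used here.

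On the lagging strand, Lig1, the ligase that joins Okazaki fragments, had 16.4, 12.9 and 13.5 CPM in Ctr and 7.97, 8.66 and 7.34 CPM in αGlu (-0.83 ± 0.13). Fen1, the nuclease that trims these fragments, was lower without overlap by -0.64 ± 0.12, and so was Rfc5 of the clamp loader by -0.31 ± 0.12. Lig1 was as low in αGlu 1 as in the other αGlu libraries. The other loader subunits did not separate the groups. Rfc3 had 10.9, 15.8 and 13.4 CPM in Ctr and 15.03, 12.6 and 14.9 CPM in αGlu (0.08 ± 0.16), and Rfc4 differed by -0.07 ± 0.16. Rpa2, of the complex that coats single-stranded DNA, differed by -0.11 ± 0.19.

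The largest difference of the 42 genes was in the supply of deoxynucleotides. Rrm2, the small subunit of ribonucleotide reductase, whose level rises in S phase in dividing cells, had 12.6, 4.35 and 8.86 CPM in Ctr and 0.746, 1.04 and 1.06 CPM in αGlu. The mean of αGlu was 11.02% of that of Ctr, and the lowest Ctr library was 4.09 times the highest αGlu library. The log2 fold change was -3.16 ± 0.44, or -3.03 ± 0.50 without αGlu 1. Rrm1, the large subunit, had 44.0, 30.9 and 36.6 CPM in Ctr and 28.3, 22.8 and 22.7 CPM in αGlu (-0.60 ± 0.16). Reads of Rrm2 for each read of Rrm1 were 0.287, 0.141 and 0.242 in Ctr and 0.0264, 0.0456 and 0.0469 in αGlu, without overlap. Rrm2b, the alternative small subunit that serves outside S phase and is no member of the set, had a log2 fold change of 0.02 ± 0.15.

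Tk1, the thymidine kinase of S phase, had 6.59, 1.92 and 2.78 CPM in Ctr and 0.402, 0.724 and 1.1 CPM in αGlu (-2.31 ± 0.59). Ctr 1 was more than 2-fold above the other Ctr libraries for this gene, and without it the log2 fold change was -1.63 ± 0.47. Ung, which removes uracil from DNA, was lower without overlap by -0.75 ± 0.29. All 4 genes of nucleotide supply and uracil removal were thus lower without overlap, against 15.9% of all genes tested.

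Genes that deliver histones to new DNA were mixed. Chaf1a, the large subunit of the chromatin assembly factor CAF-1, had 15.4, 12.1 and 11.2 CPM in Ctr and 8.72, 6.58 and 7.23 CPM in αGlu (-0.79 ± 0.17). Hells, a chromatin remodeller, was lower without overlap by -0.70 ± 0.24. Chaf1b, the partner of Chaf1a, differed by -0.21 ± 0.22 with overlap. Slbp, which binds the stem-loop of histone mRNAs, had 29.1, 25.996 and 28.3 CPM in Ctr and 26.1, 28.6 and 30.0 CPM in αGlu (0.02 ± 0.09). The groups overlapped for Slbp.

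The E-type cyclins differed from each other. Ccne2 had 3.86, 1.80 and 2.97 CPM in Ctr and 0.229, 0.535 and 0.697 CPM in αGlu, and the mean of αGlu was 16.9% of that of Ctr (-2.51 ± 0.47). Ccne1 had 6.22, 5.60 and 5.80 CPM in Ctr, 3.04 CPM in αGlu 1, and 6.86 and 6.16 CPM in αGlu 2 and αGlu 3. For Ccne1 only αGlu 1 was below Ctr, and the log2 fold change of -0.12 ± 0.31 became 0.15 ± 0.14 without that library. Reads of Ccne2 for each read of Ccne1 were 0.620, 0.321 and 0.512 in Ctr and 0.0755, 0.0780 and 0.113 in αGlu, without overlap. The checkpoint adaptor Clspn (-1.48 ± 0.39) and Dtl, which directs the destruction of CDT1 in S phase (-1.59 ± 0.36), were lower without overlap. Without Ctr 1 the log2 fold change of Clspn was -0.98 ± 0.25, within the fold limit for a call.

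The library αGlu 1 was asked about in each gene, since it resembled the Ctr libraries over the whole transcriptome. Of the 42 genes, 33 (78.6%) were below every Ctr library in αGlu 1, 33 (78.6%) in αGlu 2 and 31 (73.8%) in αGlu 3. Of all genes tested the shares were 29.4%, 37.3% and 37.3%. αGlu 1 was the lowest αGlu library in 17 genes, the highest in 19 and between the others in 6. It exceeded the mean of αGlu 2 and αGlu 3 by over 0.5 on the log2 scale in 5 genes, namely Pcna, Mcm10, Mcm5, Cdt1 and Pola1, and was lower by over 0.5 in 10, with Ccne2, Ccne1 and Tk1 at the head. Across the 42 genes, the difference from the Ctr mean in αGlu 1 and the mean of that in αGlu 2 and αGlu 3 had a Pearson r of 0.776 and a Spearman rho of 0.701, both taken from the same Ctr libraries.

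**Figure D4:**
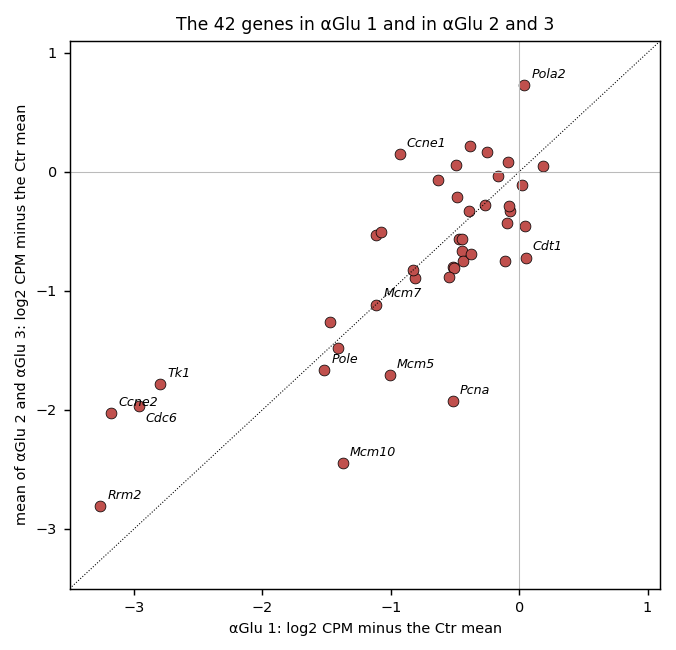
Each point is 1 of the 42 genes; axes give log2 CPM minus the mean of the Ctr libraries in αGlu 1 (x) and averaged over αGlu 2 and αGlu 3 (y), and the dotted line marks equal values. Rrm2, Ccne2, Cdc6 and Tk1 lie lower in αGlu 1 (above the line), and Pcna, Mcm10 and Mcm5 lie lower in αGlu 2 and αGlu 3 (below it).

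Ctr 1 was the highest Ctr library in 29 of the 42 genes, Ctr 3 in 9 and Ctr 2 in 4. Without Ctr 1 the median log2 fold change was -0.51, and 26 genes (61.9%) were lower without overlap, against 18.7% of all genes tested. Without αGlu 1 the median was -0.68 and 30 genes (71.4%) were lower without overlap, against 32.5% of all genes tested. With Ctr 2 or Ctr 3 alone left out the counts were 29 and 26, against 19.9% and 21% of all genes tested, and with αGlu 2 or αGlu 3 alone left out they were 26 and 27, against 17.4% of all genes tested in both. With fewer libraries in a group, a lack of overlap is easier to reach for every gene.

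Other genes of the same processes, outside the 42, were listed from general knowledge with earlier results of these data known. They are therefore no neutral background to the 42. Of all genes tested, 15.9% were lower and 14.2% higher without overlap. DESeq2 called 538 (3.92%) of the 13742 genes it tested lower, and 1117 in either direction. Of 15 other licensing and origin firing genes, 4 were lower and 1 was higher without overlap, with a median log2 fold change of 0.0021, and quasi-likelihood calls numbered 0 (DESeq2 called 2 lower). Those with the smallest p were Ticrr (-1.64 ± 0.42) and Cdc7, the kinase that phosphorylates MCM (-1.29 ± 0.39). Of 22 other fork genes, 5 were lower and 1 was higher (median -0.12), with 0 quasi-likelihood and 3 DESeq2 calls, led by Dscc1 (-2.24 ± 0.44) and Pclaf, which binds PCNA (-4.03 ± 0.95). Of 10 other nucleotide supply genes, 2 were lower and 0 were higher (median -0.34), with Nme1 (-0.45 ± 0.13) and Tyms (-0.64 ± 0.25) having the smallest p, and neither test called any. Of 8 other histone chaperones, 1 was lower and 1 was higher (median 0.015), with 0 calls, namely Rbbp7 (-0.35 ± 0.11) and Asf1a (0.67 ± 0.17).

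Subunits outside the set were compared with those within it in the same complexes, and no single pattern held. Orc2 to Orc5 had log2 fold changes between 0.0021 and 0.37, while those of Orc1 and Orc6 were negative, and in size Orc5 (0.37 ± 0.16) exceeded Orc6 (-0.25 ± 0.14). Pole3 and Pole4 differed by -0.12 ± 0.11 and -0.04 ± 0.09, compared with -1.72 for Pole, and had 46.0 and 26.8 TPM in Ctr, compared with 1.44 for Pole. Gins4 differed by -0.12 ± 0.07, between Gins3 and Gins1. The clamp loader subunits Rfc1 and Rfc2 differed by -0.13 ± 0.17 and -0.22 ± 0.25, more than Rfc3 and Rfc4 and less than Rfc5. Rpa1 (-0.20 ± 0.09) and Rpa3 (0.34 ± 0.24) differed more than Rpa2, and Pold2 (-0.30 ± 0.19) more than Pold1. No test of these contrasts between subunits was made.

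Genes of mitosis were also lower. Of 20 mitosis genes, 15 were lower and 0 were higher without overlap, against 15.9% and 14.2% of all genes tested, with a median log2 fold change of -1.42. The quasi-likelihood test called 0 and DESeq2 called 13 lower, against 3.92% of all genes DESeq2 tested. The mean log2 CPM was 3.18, 1.88 and 2.26 in Ctr and 1.02, 1.001 and 1.03 in αGlu, and Ctr 1 was again the highest. The smallest p were those of Birc5 (-2.41 ± 0.43) and Ccna2, the cyclin of S phase and G2 (-3.90 ± 0.71). Mki67 was the exception, chosen after its values had been seen. It had 49.2, 13.2 and 18.8 CPM in Ctr, 11.9 CPM in αGlu 1, and 108 and 138 CPM in αGlu 2 and αGlu 3, so that αGlu 2 and αGlu 3 were the highest of all libraries.

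**Figure D5:**
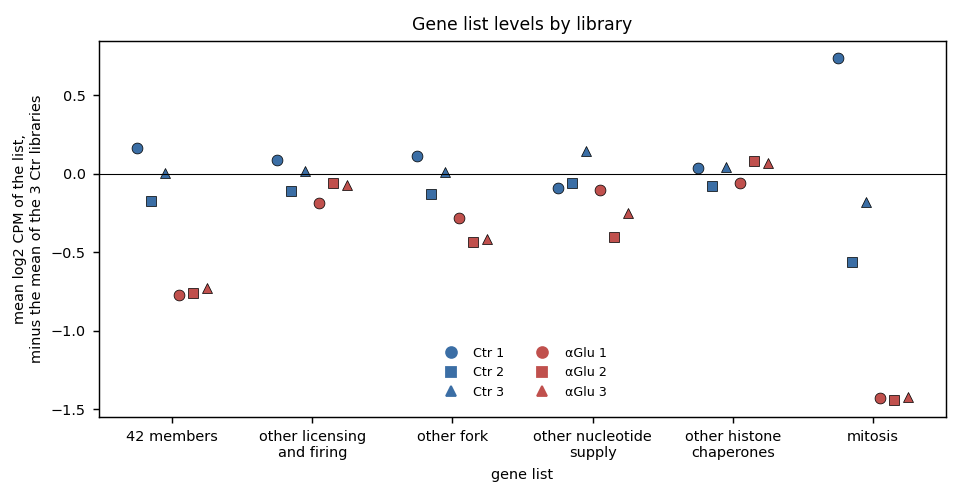
Mean log2 CPM of the tested genes of 6 lists in each library, minus the mean of the 3 Ctr libraries (blue Ctr, red αGlu; circle, square and triangle are libraries 1, 2 and 3). The αGlu libraries lie below every Ctr library for the 42 genes, mitosis, the other fork genes and, by little in αGlu 1, the other nucleotide supply genes, and mix with Ctr for the other licensing genes and the histone chaperones.

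Replication-dependent histone genes are transcribed in S phase, and their mRNAs end in a stem-loop instead of a poly(A) tail. Of 63 such genes listed, 22 had 0 reads in every library and 10 were tested. Of these 10, 9 had a negative log2 fold change, against 48.04% of all genes tested, and the median was -0.40. Lower without overlap were 2 of the 10 (H1f2 at -0.41 ± 0.13 and H4c9 at -0.64 ± 0.21), against 15.9% of all genes tested. The quasi-likelihood test and DESeq2 both called 0, against 0% and 3.92% of the genes each tested that were called lower. These libraries were prepared from poly(A) mRNA, so most of the histone mRNA is outside of what they measured.

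Lists of other cell types were compared because dividing precursors or stromal cells would carry replication genes of their own. Of 11 myeloid progenitor and monocyte markers, 6 were tested, and 2 were lower and 1 was higher without overlap. Of all genes tested, 15.9% were lower and 14.2% higher without overlap. DESeq2 called 3 of these markers lower and 2 higher. Of the 13742 genes it tested, it called 538 (3.92%) lower and 1117 in either direction. The list summed to 18.6 to 20.6 CPM in Ctr and 6.88 to 11.5 CPM in αGlu. Among those above 1 CPM in a group were Ccr2 (13.1 CPM in Ctr and 1.22 in αGlu), Kit (2.24 and 0.769), Cd34 (1.75 and 0.628), Mpo (1.52 and 0.598) and Ly6c2 (0.214 and 4.46). Of 10 fibroblast and stromal markers, 5 were tested and 2 were lower without overlap, and the list summed to 5.52 to 17.5 CPM in Ctr, highest in Ctr 1, and to 2.49 to 5.104 CPM in αGlu. Sparc (2.94 CPM in Ctr and 0.425 in αGlu), Postn (2.43 and 0.392) and Col1a2 (1.54 and 0.454) were above 1 CPM. Dcn (0.431 and 0.885) and Pdgfrb (0.476 and 0.779), with means below 1 CPM, had positive log2 fold changes with overlap. Of the 5 tested stromal markers, 3 had a negative log2 fold change. Both lists summed to lower levels in αGlu alongside the replication genes. In the progenitor and monocyte list, Ccr2 alone made up most of the sum in Ctr (mean 13.1 CPM) and had a mean of 1.22 CPM in αGlu. Other markers of that list went both ways: Kit, Cd34 and Mpo had lower means in αGlu, and Ly6c2 a higher one (0.214 and 4.46 CPM). The lower sum therefore does not show that these markers fell as a set. The part of both lists in the result was not tested.

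Of 8 neutrophil markers, 2 were tested, Csf3r (134 CPM in Ctr and 442 in αGlu) and S100a8 (0.724 and 1.33), while Ly6g and Retnlg had 0 reads in every library. Of 10 lymphocyte markers Cd4 alone was tested (25.5 and 19.3 CPM), and Cd3g and Trac had 0 reads. Of 8 mast cell and basophil markers 2 were tested, Prss34 (1.58 and 2.52 CPM) and Cpa3 (0.837 and 0.729 CPM), and of 7 erythroid markers 0 were tested. Of the 10 genes of the IL-4 and IL-13 response, all tested, 3 were lower and 0 were higher without overlap. The shares of all genes tested were 15.9% and 14.2%. Ccl22 (-2.75 ± 0.34) and Mgl2 (-4.22 ± 0.98) had the smallest p. The list as a whole went both ways, with a median log2 fold change of 0.32 and 4 of 10 negative. DESeq2 called 2 lower and 2 higher, against 538 lower (3.92%) and 1117 in either direction of the 13742 genes it tested. Of the 8 Mφ markers 0 were lower and 1 was higher (Fcgr1). The smallest p were in Cd14 (2.97 ± 1.03) and Adgre1 (0.52 ± 0.24). Arg1, chosen after its values had been seen, had 23.5 CPM in αGlu 1 and 1886 and 1792 CPM in αGlu 2 and αGlu 3, against 24.3 to 45.2 CPM in Ctr.

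Promoters were searched because E2F sites near the start are a known feature of many of these genes. RefSeq windows of 300 bases on build GRCm38.p6 (250 before and 50 after a transcript start) were matched by symbol for 35 of the 42 genes, with 39 windows. Gmnn, Mcm4, Gins1, Gins2, Prim2, Pole and Ccne2 had no entry. The 4 words TTTCCCGC, TTTCGCGC, TTTGCCGC and TTTGGCGC were sought on both strands, overlapping matches included. At least 1 was found for 16 of the 35 genes (45.7%), against 4.79% of the tested genes with a window, and in 41% of the 39 windows, against 2.26% of all 32851 and 3.97% of those of tested genes. The word CCAAT was in 56.4% of the windows, against 37.4% of all and 38% of those of tested genes, and GGGCGG in 69.2%, against 35.7% of all and 61.7% of those of tested genes. TTTGAA or TTCGAA, words found in promoters of many mitotic genes, were in 15.4%, against 19.2% of all and 14.3% of those of tested genes.

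Windows of 30 bases around a match are shown for 4 genes whose match lies before the start. They run 5′ to 3′ on the gene's strand, and capitals mark the word or its reverse complement.
Cdc6: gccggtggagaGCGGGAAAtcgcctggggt
Mcm5: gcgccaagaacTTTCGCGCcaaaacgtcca
Mcm6: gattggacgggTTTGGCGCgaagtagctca
Pola1: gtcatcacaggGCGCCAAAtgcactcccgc

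The Cdc6 window is chr11:98908002-98908031 on the plus strand, and its match begins 138 bases before the RefSeq start. In GENCODE M21 it lies in an intron of Cdc6. The Mcm5 window is chr8:75109345-75109374 on the plus strand, beginning its match 153 bases before the start, and a second word overlaps the one marked. The Mcm6 window is chr1:128359734-128359763 on the minus strand, with its match 47 bases before the start. The Pola1 window is chrX:93632275-93632304 on the minus strand, with its match 138 bases before the start. The last 3 lie upstream of the gene in GENCODE M21. The 4 genes ranged from -2.39 for Cdc6 over -1.45 for Mcm5 and -0.52 for Mcm6 to -0.52 for Pola1 in log2 fold change.

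Genes with and without a match had like medians. The 16 genes with a word had a median log2 fold change of -0.59 and 9 were lower without overlap, and the 19 without had a median of -0.60 and 11 were lower without overlap. The share over all genes tested was 15.9%. The range of log2 fold changes was -2.39 to 0.08 with a word and -3.16 to 0.54 without. Rrm2, Tk1 and Mcm10 had none of the 4 words in their windows, which says only that these letters are not there.

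Exons of 15 of the 42 genes overlap those of another gene in GENCODE M21, on the other strand for 14 of them. The overlap was longest for Chaf1a with Ubxn6 (4648 bases), Gins2 with Gse1 (2758 bases) and Fen1 with Gm10143 (1909 bases). The library kit marks the strand, but whether the counting used it was not stated, so reads of these genes are uncertain.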

How the data were processed

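Messenger RNA was measured in 6 libraries, 3 per group. The authors used v5.1 of QIAGEN's RNA-seq Analysis Portal; the submitters' processing notes name the build GRCm38, while the aligner and annotation are not given in the sources used here. As deposited, counts are raw whole numbers of reads per gene, and the deposited TPM values scale them by gene length and depth. Fold changes, p-values and CPM came from the counts, and levels of different genes were compared in TPM.

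Genes were filtered with filterByExpr (minimum count 10, minimum total count 15), TMM factors were computed, and edgeR 4.0.16 in R 4.3.3 fitted a quasi-likelihood model with group as its only term to all genes that passed. P-values were two-sided and adjusted by the Benjamini-Hochberg method. Log2 CPM values carry a prior count of 2. The standard error is the fold change divided by the square root of F. A gene was lower or higher without overlap when every αGlu library lay on one side of every Ctr library in TMM-scaled CPM. Alternatives were DESeq2 1.42.0, limma-voom (limma 3.58.1), other scaling, filters, prior counts and thresholds, a replicate block, deposited TPM, and each library left out in turn. The fits were tested on simulated counts whose spread was taken from the Ctr libraries alone. A library that stands apart as αGlu 1 does was not simulated, so that case was not tested. P-values measure the spread between these libraries, which is technical where libraries share an animal.

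The 42 genes, their 8 roles and the other lists were chosen with earlier results of these data known. Values in every library are given, in each role, for the gene with the highest mean TPM and for the one with the smallest p, and for genes with a positive fold change; Cdt1, Mcm5, Tk1, Mki67 and Arg1 were added after their values were seen. Of every other list the 2 genes of smallest p are named, and markers of other cell types above 1 CPM; 1 marker is not reported here. Figures were drawn with matplotlib 3.10.9.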

Additional observations from a re-analysis of the deposited data

How the results depend on the processing

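The 42 genes kept a negative median under every alternative run. The median log2 fold change ran from -0.68 to -0.51 when each library was left out in turn, and genes lower without overlap numbered 26 to 30 (against 17.4% to 32.5% of all genes tested), or 23 with library size alone and 23 in TPM. The mean log2 CPM of αGlu minus that of Ctr ran from -0.84 to -0.66 without each library, and was -0.48 as a median over the genes. The number of the 42 called changed from 0 to 11 with DESeq2 and to 22 with DESeq2 and no fold limit; it ran from 0 to 11 over the left-out libraries, reaching 11 only without αGlu 1. Calls over all genes changed from 0 to 1117 with DESeq2, to 2173 with DESeq2 and no fold limit, and ran from 0 to 2290 over the left-out libraries, reaching 2290 only without αGlu 1. The cause was not tested. Signs turned in genes near 0. Over the left-out libraries Slbp ran from -0.026 (without Ctr 2; -0.020 without αGlu 3) to 0.072, Ccne1 from -0.34 to 0.15 (positive only without αGlu 1), Gins3 from -0.10 (without αGlu 3) to 0.22, Prim1 from -0.037 (without Ctr 2; -0.021 and -0.035 without αGlu 2 and αGlu 3) to 0.16, and Rfc3 from -0.034 (without Ctr 1) to 0.22. No member symbol was split by a suffix, so summing split rows gave no value.

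The labels give both groups the numbers 1 to 3. Deviations of libraries with the same number from their group means correlated at 0.076, 0.065 and 0.154 across genes. Those of libraries with different numbers correlated at -0.112 to 0.046, all below the same-number values. These correlations are small and do not settle whether the numbers pair the libraries. The authors used a paired t test to compare the fragment between αGlu and Ctr Mφs by qPCR, but state no pairing for these libraries. The labels state none either, and the main fit used none. With the replicate number as a block, 0 of the 42 genes and 17 of all genes were called, and the median of the 42 was -0.59.

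Depth limits the rarest genes: 3 reads correspond to 0.0943 to 0.172 CPM, and Orc1 had 70 reads in all.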

Other observations

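Across the 42 genes, the log2 range over the 3 Ctr libraries and the log2 fold change had a Pearson r of -0.77 and a Spearman rho of -0.69; both quantities share the Ctr libraries. Rrm2, Tk1, Clspn, Dtl and Ccne2 each spanned more than 2-fold among the Ctr libraries, by 1.52, 1.73, 1.36, 1.13 and 1.07 on the log2 scale, and in each of them Ctr 1 was the highest and Ctr 2 the lowest. Mcm10 and Pcna, with log2 fold changes of -2.10 and -1.30, spanned only 0.28 and 0.17. Slbp, Pola2 and Gins3 spanned 0.16, 0.07 and 0.12. Ctr 1 was also the highest library for the mitosis genes and for the stromal markers.

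The log2 level of a gene in Ctr, in TPM, and its log2 fold change had a Pearson r of 0.27 and a Spearman rho of 0.31 across the 42 genes, a weak relation that also shares the Ctr libraries. The 14 genes with the lowest Ctr level (0.527 to 4.41 TPM) had a median log2 fold change of -1.18, and 12 were lower without overlap. The 14 in the middle (4.82 to 10.1 TPM) had a median of -0.23 and 4 were lower, and the 14 most abundant (10.2 to 589 TPM) had a median of -0.47 and 9 were lower. The share of all genes tested that were lower without overlap was 15.9%.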
